A study of Mus musculus with 2 samples.

Results

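The genes described here encode the enzymes that methylate lysine 9 of histone H3 (H3K9), the co-repressor Trim28 and the HP1 proteins that read this mark. They were chosen by name as 6 methyltransferases (Suv39h1, Suv39h2, Ehmt1, Ehmt2, Setdb1 and Setdb2), Trim28 and 3 HP1 genes (Cbx1, Cbx3 and Cbx5). All 10 had a probe among the 26127 of the deposited expression files. The rule that selects them uses names and roles and no measured value, although results of these data were known when the set was drawn up.

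RNA-seq was available from mouse embryonic stem (ES) cells of strain 129S1/SvImJ, as 1 library of WT cells and 1 of G34R cells. WT cells were unmodified (H3f3a +/+; H3f3b +/+), and G34R cells carried a single mutant copy of the H3.3 gene H3f3a (H3f3a +/G34R; H3f3b +/+). Both lines were labelled as under 20 passages and were grown with foetal calf serum and leukaemia inhibitory factor. The mutant allele came from targeting followed by Cre excision, with selection of clones, and was driven by the endogenous H3f3a promoter. Because each line had 1 library, no difference has a replicate check and no test was possible. An effect of genotype cannot be told apart from one of clone, culture or library, and in bulk RNA fewer expressing cells cannot be told apart from less RNA per cell. The study asked how the G34R substitution affects gene expression and histone methylation, including that of H3K9.

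H3K9 methylation marks silent chromatin. Suv39h1 and Suv39h2 deposit H3K9 trimethylation at constitutive heterochromatin such as pericentromeric repeats. Ehmt1 (GLP) and Ehmt2 (G9a) act as a heteromer and lay down mono- and dimethylation, largely in euchromatin. Setdb1 trimethylates H3K9 at endogenous retroviruses and at selected genes in ES cells, where KRAB zinc finger proteins recruit it through Trim28 (KAP1). The HP1 proteins bind methylated H3K9 through their chromodomains. Cbx5 encodes HP1 alpha, Cbx1 HP1 beta and Cbx3 HP1 gamma.

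Values are read densities corrected for merged transcript length and for library size (RPKM), which allow genes to be compared in level. The files give no read total. From the steps between the RPKM of short genes, totals were estimated as 88.0 M reads for WT cells and 72.5 M for G34R cells, so that 1 read on a 1 kb transcript was worth 0.0114 and 0.0138 RPKM. The H3f3a level was 8.17 RPKM in WT and 4.89 in G34R cells, and that of H3f3b was 68.84 and 58.76, which does not separate the mutant from the normal allele. Of the 9 ES cell markers examined all were present in both lines, with Pou5f1 at 194.34 and 189.46 RPKM and Sox2 at 73.83 and 75.05. Nanog was lower in G34R cells, at 52.24 against 127.07, and Zfp42 at 16.4 against 180.3. Klf4 was higher, at 43.71 against 25.14 RPKM, and Utf1 at 108.56 against 61.89, so that 2 of the 9 were past 1.5-fold in each direction. The 6 primitive endoderm markers were all higher in G34R cells, and their levels summed to 4.55 RPKM against 2.07. The 4 mesoderm markers summed to 2.19 RPKM in G34R and 0.56 in WT cells, mostly from Eomes. The 3 measured neural markers summed to 9.95 against 37.07, mostly from Tubb3, and the 5 fibroblast markers to 0.94 against 1.48, with Postn at 0 in both lines. Zfp42 and Tubb3 both lie on chromosome 8, and whether their lower values follow cell state or that chromosome was not tested. The part of all these marker differences in the values below was not tested either.

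In both lines all of the genes were expressed, over a wide range of levels. Suv39h1 was the lowest in WT cells at 1.57 RPKM, above 31.2% of the 13366 genes with at least 0.25 RPKM in 1 library. Setdb2 was the lowest in G34R cells at 2.13 RPKM, above 39.3% of these genes. Trim28 stood at the top with 326.77 RPKM in WT and 222.49 in G34R cells, above 99.7% and 99.5% of them. Between these ends the order was the same in both lines, from Suv39h2 through Ehmt1, Cbx3 and Setdb1, except that Ehmt2 and Cbx1 exchanged places below Cbx5. With 1 library per line, the order of close neighbours such as Cbx3 and Setdb1 has no replicate check. The place of Cbx3 also depends on how reads shared with near-identical loci were assigned, as described below.

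**Figure D1:**
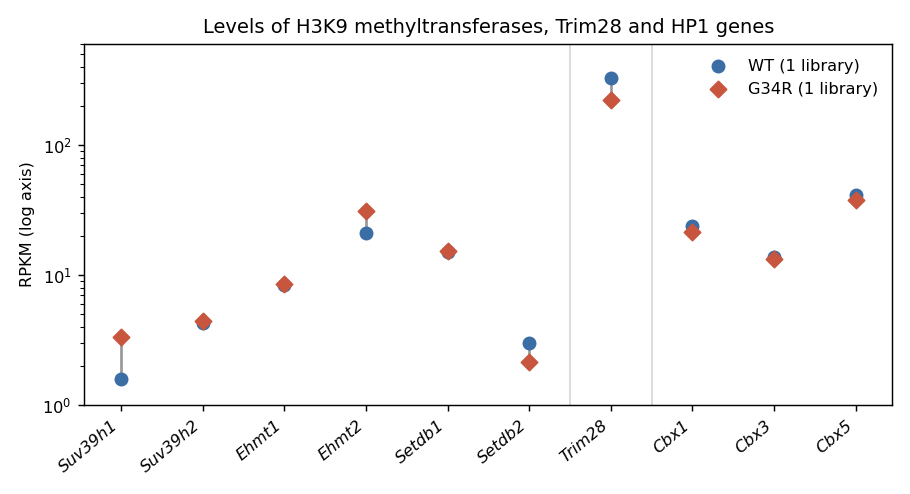
Levels of the 10 genes in RPKM on a log axis, with WT cells as circles and G34R cells as diamonds, 1 library each. Suv39h1 and Ehmt2 lie higher in G34R cells and Setdb2 and Trim28 lower, while the symbols of the other 6 nearly coincide.

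Of the 10 genes, which all passed the filter of 0.25 RPKM in 1 library, 5 were higher and 5 lower in G34R cells. Changes were expressed as log2 (G34R/WT RPKM). Only Suv39h1 was more than 2-fold higher, and 0 were more than 2-fold lower. With a pseudocount of 1 RPKM the log2 ratio of Suv39h1 was 0.76 rather than 1.10, and the count past 2-fold was 0. Among all 13366 genes passing the filter, 5.79% were more than 2-fold higher and 9.64% more than 2-fold lower. At 1.5-fold the counts were again 1 higher and 0 lower, against 13.3% and 18.2% of all genes. The median log2 ratio was -0.01 over the 10 genes and -0.07 over all genes, and 6 of the 10 were within 0.15 of 0. The count of 1 in 10 is thus near the background and no result about the set as a whole.

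**Figure D2:**
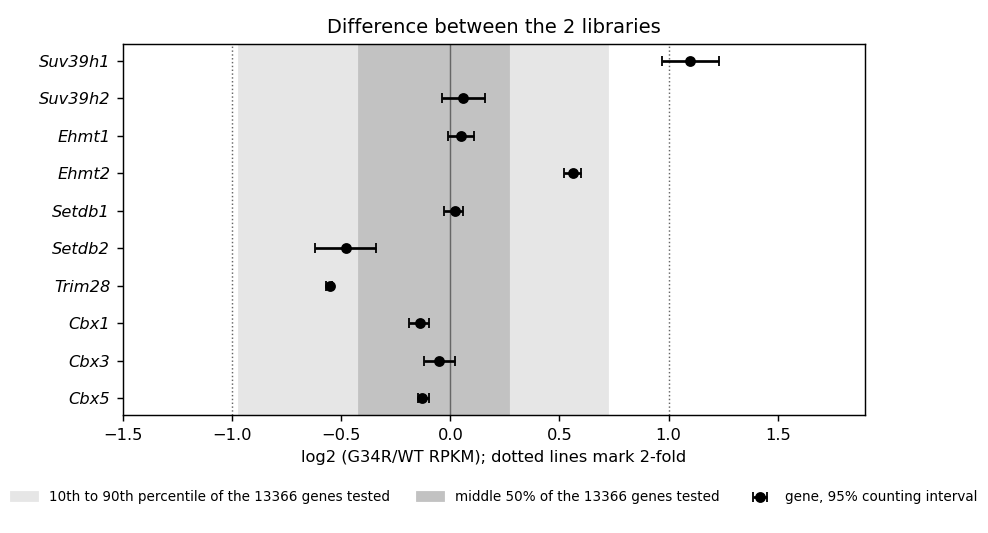
The log2 (G34R/WT RPKM) of each gene, with bars for the 95% counting interval, over the spread of all 13366 genes (middle 50% from -0.42 to 0.27; 10th to 90th percentile from -0.97 to 0.72). Suv39h1 at 1.10 lies outside the wider band, and Ehmt2 at 0.56, Trim28 at -0.55 and Setdb2 at -0.48 lie between both bands.

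Suv39h1, an enzyme of constitutive heterochromatin, had 1.57 RPKM in WT and 3.36 in G34R cells. This is a 2.14-fold higher level in G34R cells, with a log2 ratio of 1.10. About 728 and 1284 reads lay behind the values, and the 95% interval for counting error was 0.97 to 1.23, which reaches just below 2-fold. These intervals, here and below, are exact binomial intervals from estimated reads and cover counting error only, not variation between cultures. Among the 4305 genes within 2-fold of its mean level, the 10th to 90th percentile ran from -0.76 to 0.66, and 8.25% were at least as far from their median. The gene (ENSMUSG00000039231.12) lies on the minus strand at chrX:7638297-7651886 in mm9, with 7 merged exons of 5270 bp in total.

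A noncoding gene on the opposite strand differed the other way. Gm14820 (ENSMUSG00000087193.1), on the plus strand at chrX:7626298-7651745, starts beyond the 3′ end of Suv39h1 and runs through it almost to its start. It had 5.08 RPKM in WT and 0.97 in G34R cells, about 823 and 130 reads. Its level was 5.24-fold lower in G34R cells, a log2 ratio of -2.39 with a counting interval of -2.66 to -2.11. In WT cells Gm14820 was thus 3.24 times as high as Suv39h1, and in G34R cells Suv39h1 was 3.46 times as high as Gm14820.

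The exons of the opposed genes overlap over 596 bp, which is 11.3% of the merged exons of Suv39h1 and 32.4% of those of Gm14820. The overlap has 3 parts. In the Suv39h1 transcript ENSMUST00000115638, 429 bp fall in exon 3 (chrX:7647762-7648190) and 122 bp in exon 2 (chrX:7649473-7649594), all of them coding. A further 45 bp in exon 1 (chrX:7651701-7651745) hold 0 coding bases. The exon 2 part is shown because RNA from both strands of this stretch belongs to a named gene, so that only the strand of a read assigns it. It is given 5′ to 3′ on the Suv39h1 strand:

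Suv39h1 exon 2, mm9 chrX:7649473-7649594, minus strand: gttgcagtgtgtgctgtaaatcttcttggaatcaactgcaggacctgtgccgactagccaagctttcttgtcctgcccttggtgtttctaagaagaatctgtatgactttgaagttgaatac

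The libraries were stranded and the authors counted reads by strand. Of 916 pairs of genes with overlapping exons on opposite strands and both above the filter, 11 had opposite changes past 2-fold, which is 1.2%. In these, 1 gene was more than 2-fold higher and the other more than 2-fold lower, and some genes were in more than 1 pair. Among all genes 5.79% were more than 2-fold higher and 9.64% more than 2-fold lower, so pairs of unrelated genes would also rarely be opposed. Whether the 1.2% differs from that was not tested. Suv39h1 and Gm14820 were 1 of these 11. Suv39h2 overlaps the DNA repair gene Dclre1c on the opposite strand by 357 bp of exon, and Dclre1c was at 0.92 RPKM in WT and 0.6 in G34R cells. Setdb1 overlaps Lass2 by 64 bp, and Lass2 was at 6.55 and 5.3 RPKM. Neither pair was among the 11.

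**Figure D3:**
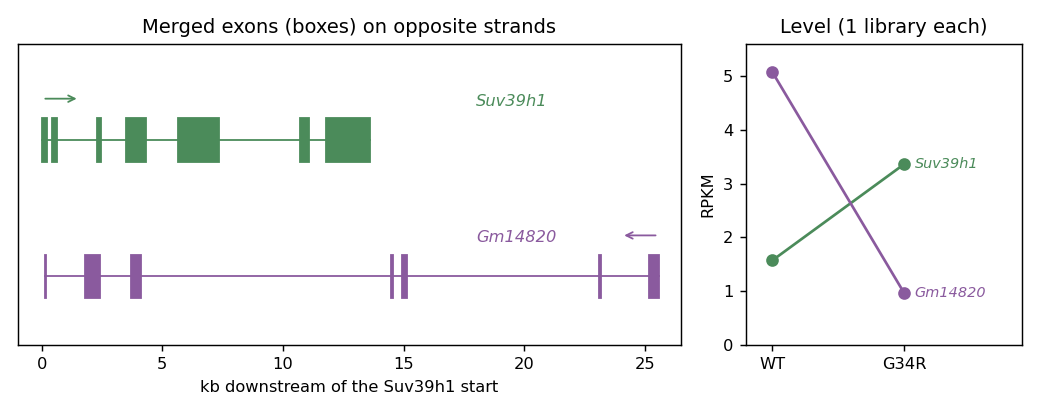
Left, merged exons of Suv39h1 and of the opposite-strand gene Gm14820 in kb from the Suv39h1 start, with arrows for the direction of transcription. Right, their levels in RPKM in WT and G34R cells (1 library each), where Suv39h1 goes from 1.57 to 3.36 and Gm14820 from 5.08 to 0.97.

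Suv39h2, the paralogue of Suv39h1 with the same activity, was at 4.27 RPKM in WT and 4.45 in G34R cells. The log2 ratio was 0.06, with a counting interval of -0.04 to 0.16 that includes 0. Suv39h2 was therefore the more abundant of the pair in both lines, by 2.72 times in WT and 1.32 times in G34R cells. Suv39h2 (ENSMUSG00000026646.10) lies on the minus strand at chr2:3373087-3392303.

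Ehmt2, which encodes the enzyme G9a, was the most abundant methyltransferase in both lines. Its level was 20.91 RPKM in WT and 30.85 in G34R cells. This was 1.48-fold higher in G34R cells, just short of 1.5-fold, with a log2 ratio of 0.56 and a counting interval of 0.52 to 0.60 from about 10100 and 12277 reads. Of the 1971 genes within 2-fold of its mean level, 15.2% were at least as far from their median. Its partner Ehmt1 was at 8.32 and 8.6 RPKM, a log2 ratio of 0.05 whose counting interval of -0.01 to 0.11 includes 0. The ratio of Ehmt2 to Ehmt1 was 2.51 in WT and 3.59 in G34R cells, so the partners did not differ between the lines in the same proportion. Ehmt2 (ENSMUSG00000013787.9) lies on the plus strand at chr17:35035414-35050997 and Ehmt1 (ENSMUSG00000036893.9) on the minus strand at chr2:24646289-24775129.

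Setdb1, the enzyme that Trim28 recruits to retroviral elements, showed nearly the same level in both lines, 15.06 RPKM in WT and 15.25 in G34R cells. Its log2 ratio was 0.02, with a counting interval of -0.03 to 0.06. Setdb2, a less studied relative, was at 2.97 and 2.13 RPKM. The log2 ratio of Setdb2 was -0.48, or 1.39-fold lower in G34R cells, from about 1058 and 625 reads with a counting interval of -0.62 to -0.34. Genes of similar level varied as much, and 37.8% of 4343 were at least as far from their median. Setdb1 (ENSMUSG00000015697.8) lies on the minus strand at chr3:95127447-95161124 and Setdb2 (ENSMUSG00000071350.5) on the minus strand at chr14:60020846-60059721.

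The summed level of the 6 methyltransferases was 53.1 RPKM in WT and 64.64 in G34R cells, and Ehmt2 made up most of the difference. Its share of the sum was 39.4% in WT and 47.7% in G34R cells. The share of Setdb1 was 28.4% and 23.6%, that of Ehmt1 15.7% and 13.3%, that of Suv39h2 8.04% and 6.88%, and that of Setdb2 5.59% and 3.3%. Suv39h1 had 2.96% and 5.2% of the sum, the smallest share in WT cells.

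Trim28, the scaffold that joins KRAB zinc finger proteins to Setdb1 and HP1, was 1.47-fold lower in G34R cells. The levels were 326.77 RPKM in WT and 222.49 in G34R cells, about 116288 and 65232 reads. The log2 ratio was -0.55, with a counting interval of -0.57 to -0.54. At this depth counting error is small, but among the 121 genes within 2-fold of its mean level the 10th to 90th percentile ran from -0.45 to 0.43, and 19.0% were at least as far from their median. Relative to Setdb1, Trim28 was 21.7 times as high in WT and 14.6 times as high in G34R cells. Trim28 (ENSMUSG00000005566.7) lies on the plus strand at chr7:13609501-13616384, with 10 merged exons.

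As listed, the HP1 genes kept nearly the same proportions in both lines. Cbx5 was the highest, at 41.31 RPKM in WT and 37.8 in G34R cells, with a log2 ratio of -0.13. Cbx1 was at 23.86 and 21.58 RPKM, a log2 ratio of -0.14. Cbx3 was at 13.84 and 13.39 RPKM, a log2 ratio of -0.05 whose counting interval of -0.12 to 0.02 includes 0. The counting intervals of Cbx5 (-0.15 to -0.10) and Cbx1 (-0.19 to -0.10) lie below 0, as does the median of all genes.

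Their sum was 79.01 RPKM in WT and 72.77 in G34R cells. Cbx5 made up 52.3% and 51.9% of it, Cbx1 30.2% and 29.7%, and Cbx3 17.5% and 18.4%. As listed, no HP1 gene thus gained or lost more than 1 percentage point. These shares take the listed level of Cbx3 as it stands. They would differ if reads listed at the near-identical loci described below came from Cbx3. Cbx5 (ENSMUSG00000009575.8) lies on the minus strand at chr15:103021975-103070247, Cbx1 (ENSMUSG00000018666.7) on the plus strand at chr11:96650441-96669954, and Cbx3 (ENSMUSG00000029836.9) on the plus strand at chr6:51420359-51433703.

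The level of Cbx3 is less certain than the others because other loci carry nearly its whole coding sequence and most of its stretches of read length. Of the 2146 distinct windows of 50 bases, the read length, in its annotated transcripts, 1565 (72.9%) occur letter for letter elsewhere in mm9. Of these, 1548 are in Gm6984 on chromosome 14 and 1253 in Gm10068 on chromosome 1, both single-exon genes. A window can occur at several places. Further ones include a place on chromosome 9 without an annotated gene (794 windows) and places on chromosome 13 (365, 323 and 268 windows). Against the 552 bp coding sequence of Cbx3 (ENSMUST00000114446), Gm6984 has 1 difference (99.8% identity) and Gm10068 has 2 (99.6%). With positions numbered from 1 at the A of the ATG, they are A390G in Gm6984, and A390G and C399T in Gm10068, with the base of Cbx3 first. Coding bases 310 to 399 are shown because they hold all of these differences, in capitals:

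Cbx3, mm9 chr6, plus strand: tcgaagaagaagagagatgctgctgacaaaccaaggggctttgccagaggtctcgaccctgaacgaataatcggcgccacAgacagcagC
Gm6984, mm9 chr14:74354960-74355049, minus strand: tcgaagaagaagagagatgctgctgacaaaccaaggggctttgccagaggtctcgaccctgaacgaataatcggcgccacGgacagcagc
Gm10068, mm9 chr1:58703841-58703930, plus strand: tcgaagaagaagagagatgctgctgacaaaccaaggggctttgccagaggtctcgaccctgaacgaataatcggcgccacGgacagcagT

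Gm6984 was listed at 15.79 RPKM in WT and 15.62 in G34R cells, and Gm10068 at 8.09 and 7.15. Reads that fit several of these loci would have been placed on 1 of them, so the split between Cbx3 and its copies is uncertain. Cbx3, Gm6984 and Gm10068 each had a log2 ratio between -0.18 and 0. Reads placed at the loci on chromosomes 9 and 13 were not examined. Setdb1 was the only other gene of the set with more than 1% of windows found elsewhere. For Setdb1 it was 390 of 4707 (8.29%), all in 1 stretch of chromosome 3. That stretch overlaps the noncoding gene Gm4349 and the coding gene Arnt, and which of them holds the windows was not examined. Gm4349 was at 2.34 RPKM in WT and 1.53 in G34R cells, and Arnt at 5.96 and 6.7. In Suv39h1 the share was 0.63% and in Cbx1 0.948%, and 0 windows were shared between any of the 10 genes.

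The position of the genes was examined next, through the expressed genes (at least 1 RPKM in 1 library) within 1 Mb. The 31 such genes around Suv39h1 had a median log2 ratio of -0.15, with 12 above 0 and 19 below, and the 362 of the X chromosome had a median of -0.21. The highest of the 31 was 0.64, so the 1.10 of Suv39h1 was above all of them. The lowest was Gm14458, at 4.24 RPKM in WT cells and listed at 0 in G34R cells. Gm14820 is among the 31, and it was not the only one more than 2-fold lower. Others included Glod5 (log2 ratio -1.73), Eras (-1.43) and Pcsk1n (-1.86).

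Around Trim28, 9 of 12 genes were below 0, with a median of -0.28. The gene beside it on the opposite strand, Chmp2a, a component of the ESCRT-III complex, was lower by more than Trim28 itself, at 47.42 RPKM in WT and 25.19 in G34R cells (log2 ratio -0.91). Ube2m, also close by, went the other way, at 15.81 and 18.39 RPKM (log2 ratio 0.22). The 72 genes around Ehmt2 had a median of 0.04 and a range of -2.83 to 0.99. Its neighbours on the same strand, Zbtb12, Slc44a4 and Neu1, had log2 ratios of 0.81, 0.51 and 0.45, at 2.83, 1.26 and 2.08 RPKM in WT cells and 4.96, 1.8 and 2.84 in G34R cells. Other genes near Ehmt2 included Rdbp (0.14), Dom3z (0.09), Hspa1b (-0.02) and 1110038B12Rik (-0.23), and of the 72 genes 39 were above 0 and 33 below. Whether adjacent genes varied together was not tested.

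**Figure D4:**
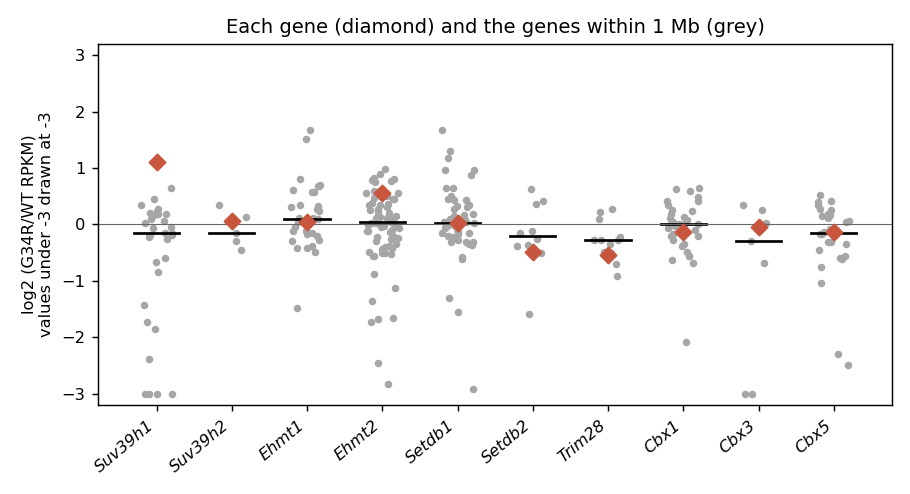
The log2 (G34R/WT RPKM) of each gene (diamond) with that of the expressed genes within 1 Mb (grey points, black line at their median; values under -3 are drawn at -3). Suv39h1 at 1.10 is above its 31 neighbours, whereas the other 9 lie within the range of theirs.

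The promoters of the genes whose levels differed most are shown as background for these loci. Windows of 300 bases around annotated starts came from RefSeq on GRCm38.p6, so these coordinates are not those of mm9, and all 10 genes matched with 14 windows. They held 8 to 40 CpG dinucleotides, against a median of 7 over all 32851 windows. The SP1 or KLF box GGGCGG, searched on both strands, was found in a window of 9 of the 10 genes (not Setdb2), and in 35.7% of all windows. The CCAAT box was found for 4 (Suv39h1, Setdb1, Setdb2 and Cbx5), and in 37.4% of all windows. The ETS site CCGGAAG occurred at Setdb1 (8.86% of all windows) and the CRE TGACGTCA at Suv39h2 (1.79%). The TATA box TATAAA (13.6% of all windows), the E2F site TTTCCCGC (1.07%) and the NRF1 core GCGCATGC (2.71%) were found for 0 of the 10. A gene was counted if any of its windows matched, whereas the shares of all windows count each window singly. The windows of the 10 genes also held more CpG than the median window, so these figures are no measure of enrichment. Such matches describe letters and not binding. Below, the 150 bases before the outermost start are given on the strand of the gene, with letters of the GGGCGG and CCAAT motifs, on either strand, in capitals:

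Suv39h1, GRCm38.p6 chrX:8074761-8074910, minus strand: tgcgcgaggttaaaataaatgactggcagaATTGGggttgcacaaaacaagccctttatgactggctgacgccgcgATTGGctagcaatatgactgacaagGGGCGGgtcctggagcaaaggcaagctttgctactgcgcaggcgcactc
Ehmt2, GRCm38.p6 chr17:34898324-34898473, plus strand: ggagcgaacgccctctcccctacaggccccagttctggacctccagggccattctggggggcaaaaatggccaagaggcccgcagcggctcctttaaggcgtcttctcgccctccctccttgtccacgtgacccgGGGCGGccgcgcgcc
Trim28, GRCm38.p6 chr7:13024002-13024151, plus strand: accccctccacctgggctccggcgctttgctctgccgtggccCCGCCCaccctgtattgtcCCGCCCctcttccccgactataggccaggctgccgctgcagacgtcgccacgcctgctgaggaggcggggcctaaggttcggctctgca

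Other genes of the pathway were taken from 9 lists by role, with 48 genes in all. Of the 47 with a probe, 40 passed the filter. Among them 1 was more than 2-fold higher and 6 more than 2-fold lower, and 19 were above 0 and 21 below, with a median log2 ratio of -0.07, equal to that of all genes. The share past 2-fold was 2.5% higher and 15.0% lower, against 5.79% and 9.64% of all genes, and whether these shares differ was not tested. Of the 6 lower genes, 4 are Magea genes, described below, that passed the filter through WT cells only. Of all genes, 44.5% were above 0 and 55.0% below.

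The gene more than 2-fold higher was Wiz, which encodes a zinc finger subunit of the Ehmt1-Ehmt2 complex. It was at 2.02 RPKM in WT and 5.16 in G34R cells, 2.55-fold higher, with a log2 ratio of 1.35 and a counting interval of 1.27 to 1.44. Among the 4643 genes within 2-fold of its mean level, 4.24% were at least as far from their median. The other 3 Ehmt partners were within 1.5-fold, the highest being Zfp462 at 8.04 and 11.15 RPKM. Most genes were within 1.5-fold too, with 13.3% of all genes further up and 18.2% further down, so nothing is read from this count. Wiz and Ehmt2 are both on chromosome 17, where the median log2 ratio of 568 expressed genes was -0.02.

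For Setdb1, the partner Atf7ip, which stabilises the enzyme in the nucleus, was at 13.57 RPKM in WT and 12.48 in G34R cells. Its paralogue Atf7ip2 was 2.27-fold lower in G34R cells, at 0.85 against 1.93 RPKM (log2 ratio -1.18, counting interval -1.38 to -0.98). Among the 3647 genes within 2-fold of its mean level, 13.7% were at least as far from their median. Of the 4 genes listed for the HUSH complex, which works with Setdb1 on integrated elements, 0 were past 2-fold. Among all genes 5.79% were more than 2-fold higher and 9.64% more than 2-fold lower, and 4 genes are too few to set apart from this. The highest of the 4 was the one listed as D14Abb1e (also Fam208a), at 16.1 and 11.35 RPKM.

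Of the 5 KRAB zinc finger adaptors that bring Trim28 to DNA, 4 were lower and 1 of them by more than 2-fold, and their median log2 ratio was -0.29. For comparison, 55.0% of all genes were below 0 and 9.64% more than 2-fold lower, and 5 genes are too few to set apart from this. Zfp809, which recognises the primer binding site of murine leukaemia viruses, was 2.34-fold lower in G34R cells, at 4.49 against 10.51 RPKM, with a counting interval of -1.39 to -1.06 on the log2 scale. Among the 4295 genes within 2-fold of its mean level, 4.35% were at least as far from their median. Zfp568, the highest of the 5, was at 24.79 RPKM in WT and 20.3 in G34R cells. The relatives of Trim28 that passed the filter, Trim24 and Trim33, were near 0, with Trim24 at 9.85 and 10.03 RPKM.

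None of 8 HP1-binding and heterochromatin genes was past 2-fold (0 of 8). Of all genes 5.79% were more than 2-fold higher and 9.64% more than 2-fold lower. In this list 7 of 8 were above 0, with a median of 0.22, against 44.5% of all genes above 0, and nothing is read from this count. The highest were the chromatin remodeller Chd4, at 49.43 RPKM in WT and 58.17 in G34R cells, and Uhrf1, which links H3K9 methylation to DNA methylation, at 53.22 and 51.1. The 8 H3K9 demethylases had a median of -0.21 and 0 past 2-fold. Kdm1a was the most abundant, at 44.85 RPKM in WT and 30.4 in G34R cells. Kdm3a, named after its value was seen, had the lowest log2 ratio of the list (-0.97), at 24.76 and 12.66 RPKM. Among the PRDM-type enzymes Prdm2 was the highest, at 5.17 and 5.96 RPKM.

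The last list held 10 genes known to be silenced through Ehmt2 or Setdb1 in ES cells, of which 9 had a probe and 5 passed the filter. Magea4 was at 1.2 RPKM in WT cells and listed at 0 in G34R cells, Magea5 at 0.63 and 0, and Magea6 at 0.33 and 0. Magea8 was at 0.75 and 0.01 RPKM. These germline genes of the Magea family account for 4 of the 6 genes more than 2-fold lower, and all of them are on the X chromosome. Each of the 4 passed the filter through WT cells only. Whether reads tell these related genes apart was not examined, so they may not be separate measurements. The remaining gene, Hand1, a developmental regulator, was at 0.14 and 0.26 RPKM.

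**Figure D5:**
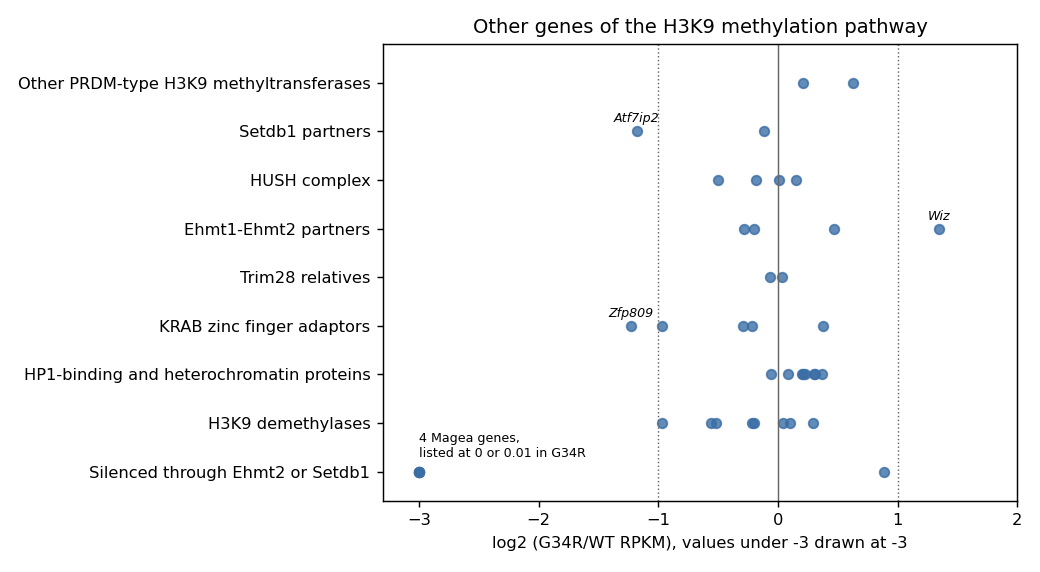
The log2 (G34R/WT RPKM) of the 40 other pathway genes that passed the filter, by list, with dotted lines at 2-fold. Wiz is the gene beyond the upper line, and Atf7ip2, Zfp809 and 4 Magea genes are those beyond the lower line (values under -3 are drawn at -3).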

How the data were processed

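The analysis started from RPKM per gene, which the authors deposited for 1 library of each cell line. They aligned 50 bp single-end stranded reads (500 ng of total RNA, 12 cycles) to mm9 with STAR 2.4.2a, imported primary alignments into Seqmonk, merged isoforms, counted by strand and corrected for transcript length. RPKM depends on each library's total. A fall in a few very high genes raises the rest.

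Log2 (G34R/WT RPKM) used a floor of 0.01 RPKM. Counts past 2-fold needed 0.25 RPKM in 1 library. No test was possible with 1 library per line. Totals were estimated from single-exon genes under 800 bp (81 in WT, 65 in G34R cells), and reads from RPKM, merged exons of GENCODE M1 (26030 of 26127 probes matched) and these totals. Intervals are Clopper-Pearson at 95%. Merged lengths used by Seqmonk may differ. The methods were tested on simulated data.

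The genes and lists were chosen by role, with earlier results of these data known. Named pathway genes were those past 2-fold with at least 1 RPKM and the highest of each list, others being named for context after their values were seen. Where 2 probes shared a symbol, the higher was used. Alternatives were other pseudocounts, filters, scalings and fold thresholds. Software comprised Biopython 1.88, Numba 0.67.0, SciPy 1.17.1 and pandas 2.3.3 under Python 3.11.15, with NumPy 2.4.6 and, for plots, matplotlib 3.10.9. ChIP-seq was not analysed here.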

Additional observations from a re-analysis of the deposited data

How the results depend on the processing

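Each log2 ratio was recalculated under 6 alternatives, and 9 of the 10 genes kept their sign. The same pseudocount added to both libraries cannot change a sign. Each other scaling raised the G34R values, taking the median log2 ratio of all genes from -0.07 to -0.02 or -0.01. Genes above 0 therefore could not change sign, and a kept sign is no support for a direction. Suv39h1 ran from 0.76 (pseudocount of 1 RPKM) to 1.16, Ehmt2 from 0.54 to 0.62, Trim28 from -0.55 to -0.50 and Setdb2 from -0.48 to -0.34. Cbx3 changed sign, between -0.05 and 0.01. Of the 6, leaving chromosomes 8, X and Y out of the RPKM sum used for scaling was chosen after seeing the data. The count of genes in the set more than 2-fold higher was 1, from Suv39h1, and became 0 with a pseudocount of 1 RPKM, with at least 5 RPKM in 1 library, or at 3-fold. Among the other pathway genes, the 1 higher became 2 without a filter on low RPKM, 3 at 1.5-fold and 0 at 3-fold. The 6 lower became 2 with a pseudocount of 1 RPKM, 10 without a filter, 3 with at least 1 RPKM and 1 with at least 5 RPKM in 1 library, and 8 at 1.5-fold and 4 at 3-fold. No paired analysis was possible because each cell line had 1 library, and for the same reason no library could be left out.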
